A study of Mus musculus with 18 samples.

Results

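The prostates of Elac2 knockout mice aged 30 weeks were compared with those of knockout mice aged 10 weeks, with 3 libraries at each age and so 6 of the 18 libraries of the series. The knockout (KO, genotype ELAC2-/- on the labels) carries Elac2 without exon 8, which a Cre recombinase under the probasin promoter (Pb-Cre) removed in prostate epithelium. The wild type (WT, ELAC2+/+) libraries of the same ages, 3 at each, were used to show where the KO change differed. All mice were males of the strain given as C56NL/6N, none of these libraries came from mice with the TRAMP tumour transgene, and ventral and lateral lobes were the source of the total RNA. Libraries 13AF, 14AF and 15AF were KO at 10 weeks and 4AF, 5AF and 6AF were KO at 30 weeks, while 10AF to 12AF and 1AF to 3AF were WT at 10 and 30 weeks. Of 55469 listed genes, 14908 averaged 10 or more normalized counts across the 6 KO libraries and were tested.

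ELAC2 is RNase Z, the nuclease that cuts the 3′ trailer from precursor transfer RNAs in the nucleus and in mitochondria. The mouse prostate is a gland of several lobes whose luminal cells secrete seminal proteins under androgen control, and the lobes differ in which proteins they make. Basal epithelial cells, smooth muscle, collagen-producing fibroblasts, vessels and autonomic nerves surround the ducts, and the gland is still maturing in young adult mice. A sample of bulk tissue records all of these cells at once, and in it fewer cells of a type and less RNA per cell cannot be told apart.

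Recovered reads per library ran from 6569642 to 11225281 in KO. Genes of the seminal vesicle, a gland that lies against the prostate, took 6.56 to 10.3% of reads in the 3 KO libraries at 10 weeks, 8.53 and 6.33% in libraries 4AF and 6AF, and 0.000143% in library 5AF. Library 5AF was also nearly without 9530053A07Rik, a secretory gene at 222255, 338088 and 392815 normalized counts at 10 weeks and at 205712, 41.3 and 170747 at 30 weeks. Library 15AF was nearly without Sbp, the spermine binding protein made in ventral prostate, which had 221580, 144632 and 321 counts at 10 weeks and 309252, 735843 and 401834 at 30 weeks. These libraries stood apart within their groups, as the plot of tissue markers shows, so counts are also given without 5AF, and without 5AF and 15AF together. Skeletal muscle genes took 0.0698 to 0.104% of reads in 5 of the KO libraries, 2.16% in library 14AF and 4.12 to 13.2% in the WT libraries at 10 weeks. Luminal epithelium was present throughout, with the luminal keratin Krt8 at 1155 to 1861 counts in the KO libraries. Elac2 itself was at 119, 110 and 115 counts at 10 weeks and 90.4, 142 and 112 at 30 weeks, a log2 change of -0.03 ± 0.19 (SE, adjusted p = 0.948 from limma), and a count over the whole gene cannot tell transcripts that lack exon 8 from the others.

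**Figure D1:**
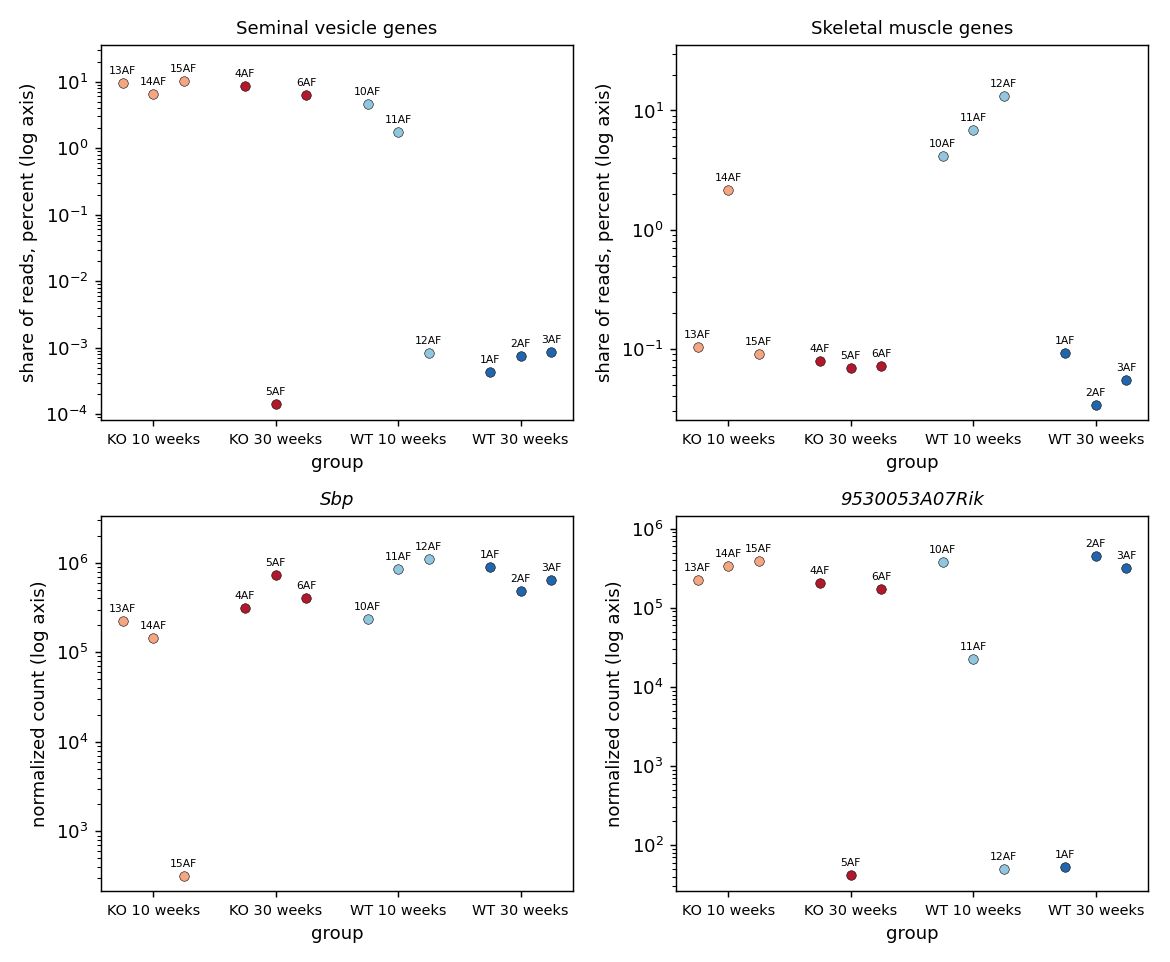
Marker genes in each of the 12 KO and WT libraries. The upper panels give the percent of reads in seminal vesicle and skeletal muscle genes, the lower panels the normalized counts of Sbp and 9530053A07Rik, all on log axes, with 1 point per library. Library 5AF sits apart from 4AF and 6AF for seminal vesicle genes (0.000143%) and 9530053A07Rik (41.3 counts), and library 15AF sits apart from 13AF and 14AF for Sbp (321 counts).

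Between 10 and 30 weeks, 263 genes changed in KO (1.76% of the 14908 tested, limma with Benjamini-Hochberg adjusted p under 0.05), of which 67 rose (0.449%) and 196 fell (1.31%). The rises were led by secretoglobins, and the falls by genes of autonomic neurons. Past 4-fold there were 19 rises and 86 falls. Without library 5AF 551 genes were called (3.73%), 154 higher (1.04%) and 397 lower (2.68%), with 65 of the 67 rises and all 196 falls among them. Without 5AF and 15AF 315 were called (2.12%), 108 higher (0.728%) and 207 lower (1.4%). The calls fell to 33, 31, 23 and 56 without 13AF, 14AF, 15AF or 6AF alone, and were 203 without 4AF. edgeR's quasi-likelihood test on the recovered reads called 59 higher (0.396%) and 188 lower (1.26%), and DESeq2 called 487 (3.27%) and 616 (4.13%). At an unadjusted p under 0.05 (limma) there were 3185 genes in KO (21.4%), the share to set beside later KO counts at that p. Rises made up 25.5% of the calls when the 6 libraries were scaled by the median of ratios. They made up 10.2% when libraries were scaled to the same total, 9.17% with seminal vesicle and muscle genes left out of that total, and 47.4% on the deposited size factors. These scalings moved the median of all tested genes by -0.13, -0.20 and 0.10 on the log2 scale, so small shifts of a list are read against those values.

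In WT, the same comparison of ages called 1531 of 15030 genes (10.2%), 517 higher (3.44%) and 1014 lower (6.75%). Of the 67 genes that rose in KO, 62 had the same sign in WT and 34 were called higher there, and of the 196 that fell, 167 had the same sign and 45 were called lower. The KO change minus the WT change was tested directly in the 12 libraries, and 0 of 15030 genes passed (0%, limma, smallest adjusted p = 0.137). At an unadjusted p under 0.05 there were 1923 (12.8%), edgeR called 0, and DESeq2 called 144 higher (0.958%) and 76 lower (0.506%). No gene below is therefore shown by limma to change with age differently in KO and WT.

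Secretoglobins gave the largest rises. They are small secreted proteins, and the mouse carries a large cluster of Scgb1b and Scgb2b genes, known for androgen-binding protein subunits of saliva and tears. The cluster spans 64 annotated genes on chromosome 7 (GRCm38, 31255891 to 34100837), 29 of them protein coding. Of 40 secretoglobin genes in the tables, 8 had enough reads to be tested, all 8 within this cluster, and all 8 rose. All 8 passed the minimum count through the 30-week libraries alone, so their count describes genes that became measurable and says nothing of the other 32. Paralogs here share long stretches of sequence, and how reads were split between them is uncertain.

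Scgb2b20 (ENSMUSG00000094305.1, chromosome 7, 33364343 to 33366322, minus strand) had 0 reads in all 3 KO libraries at 10 weeks and 806, 1996 and 965 normalized counts at 30 weeks. Its neighbour Scgb1b20, on the opposite strand, had 0 reads at 10 weeks and 418, 897 and 467 counts at 30 weeks. Taking 0 reads to allow up to 3 in a library, Scgb2b20 was at least 397-fold higher and Scgb1b20 at least 188-fold higher at 30 weeks (adjusted p = 0.000356 for each, limma). Scgb2b7 went from 1.72, 3.49 and 0 to 453, 849 and 557 counts, a log2 change of 8.03 ± 0.56 (SE, adjusted p = 0.00312, limma). In each of these 3 genes the ages did not overlap, a condition for naming the largest rises, and library 5AF was the highest of the 30-week libraries.

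The other secretoglobins had the same order of libraries at 30 weeks, with 4AF lowest and 5AF highest. Scgb2b17 had 15.4, 0 and 0 counts at 10 weeks and 1567, 4430 and 2191 at 30 weeks (log2 change 9.93 ± 1.10, adjusted p = 0.0112, limma). Scgb2b15 had 0, 18.6 and 0 and then 1417, 3751 and 1917 (9.65 ± 1.15, adjusted p = 0.0143, limma). Scgb2b27 went from 5.15, 4.65 and 0 to 72.3, 259 and 118 (5.33 ± 0.81, adjusted p = 0.0311, limma). Scgb2b12 and Scgb2b24 had 0 reads in every KO library at 10 weeks and 26.0 to 77.1 counts at 30 weeks, at least 20.3-fold and 11.4-fold higher. The median log2 change of the 8 was 8.58, or 7.79 with those at 0 reads set to their lower bound, a direction that the minimum count fixed. All 8 also rose in WT (median 9.54), where Scgb2b20 went from 0, 1.65 and 1.03 to 6193, 1365 and 2784 counts. The list held 8 rises without 5AF and without 5AF and 15AF, and 4 to 8 when any single library was left out.

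Because members of 1 subfamily rose together, the stretch from 120 to 21 bases before the start of 4 of these genes is shown, from RefSeq with GRCm38.p6 coordinates. The capitals mark 2 runs of letters that these and the other 2 of 6 compared Scgb2b genes share (GGGTGTGGCTGGG and GCTATAATG).
Scgb2b7 (chr7:31705775-31705874, minus): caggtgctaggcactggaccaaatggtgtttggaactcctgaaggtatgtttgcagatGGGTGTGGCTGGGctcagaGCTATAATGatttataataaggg
Scgb2b20 (chr7:33366340-33366439, minus): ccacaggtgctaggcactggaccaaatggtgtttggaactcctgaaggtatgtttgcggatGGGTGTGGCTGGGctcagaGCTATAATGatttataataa
Scgb2b15 (chr7:32829674-32829773, minus): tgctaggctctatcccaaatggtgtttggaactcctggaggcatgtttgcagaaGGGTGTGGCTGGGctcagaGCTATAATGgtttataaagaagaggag
Scgb2b24 (chr7:33739316-33739415, minus): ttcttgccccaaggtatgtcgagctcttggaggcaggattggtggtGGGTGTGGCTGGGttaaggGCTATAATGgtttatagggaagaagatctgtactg

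The window of Scgb2b17 was identical to that of Scgb2b15, and that of Scgb2b12 also held both runs, while the window of Scgb2b27 held neither. The runs were picked because the 6 windows share them. Over both strands, GGGTGTGGCTGGG lies in 18 of 32851 RefSeq promoters of 300 bases (0.0548%) and GCTATAATG in 49 (0.149%). The letters AGAACA, which make up a common arm of the androgen response element, lie in 6 of these 6 promoters and in 18.97% of all promoters. The 6 are paralogs that share stretches of sequence, so they are not 6 separate matches to set against that share. Scgb2b27 was not among the 6. A match describes these letters and is not a measured binding site.

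**Figure D2:**
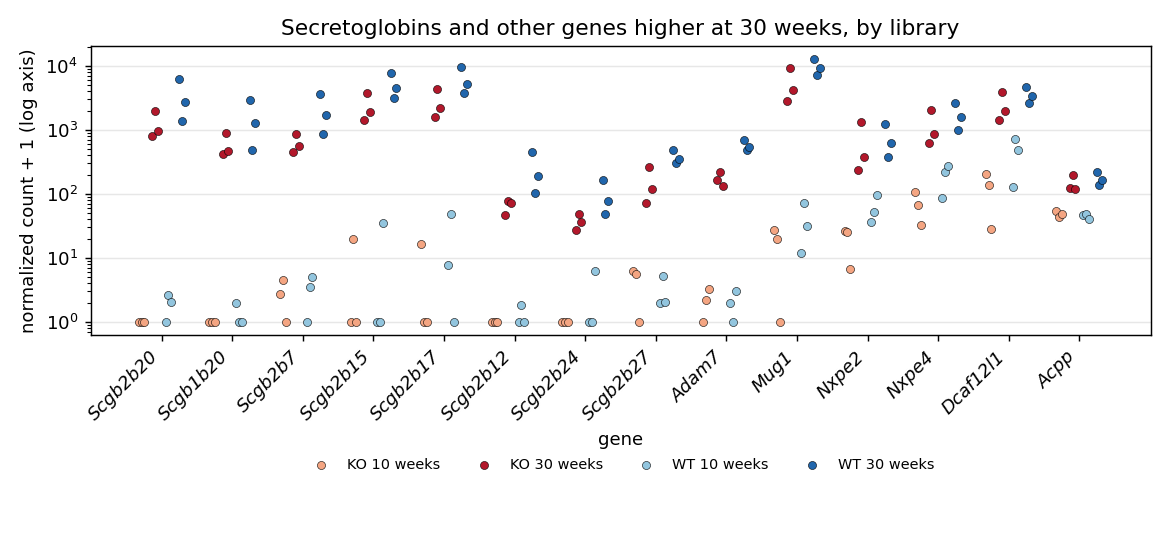
Normalized counts plus 1 (log axis) of 8 secretoglobins and 6 other genes that rose in KO, in each KO and WT library at 10 and 30 weeks, with 1 point per library and a count of 0 drawn at 1. In every gene shown the KO libraries at 30 weeks lie above those at 10 weeks, for example 806 to 1996 against 0 for Scgb2b20. Such separation was a condition for naming the largest rises.

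Other genes outside this family rose with them. Mug1, an α2-macroglobulin family protease inhibitor (chromosome 6, 121838541 to 121889057), had 26.6, 18.6 and 0 counts at 10 weeks and 2851, 9209 and 4215 at 30 weeks, a log2 change of 9.20 ± 1.23 (SE, adjusted p = 0.0221, limma). Adam7, a metalloprotease family member known from the epididymis, had 0, 1.16 and 2.28 counts and then 163, 215 and 132. Its ratio was 172 with a 95% counting interval of 58.4 to 834 (adjusted p = 0.00318, limma), and it passed the minimum count through the older libraries alone. Both genes were far above their 10-week range in all 3 older libraries.

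Nxpe2 rose by 4.90 ± 0.77 on the log2 scale, from 25.7, 24.4 and 5.71 to 238, 1317 and 381 counts, and its neighbour Nxpe4 by 4.07 ± 0.56, from 107, 65.1 and 32.0 to 620, 2065 and 863 (adjusted p = 0.0344 and 0.024, limma). Dcaf12l1 rose from 207, 136 and 27.4 to 1408, 3978 and 2008 (4.59 ± 0.76, adjusted p = 0.0407, limma). These 3 genes were lowest in library 15AF, the one nearly without Sbp, and highest in 5AF, the one nearly without 9530053A07Rik, and the part of these differences between libraries in the result was not tested. The ages did not overlap in any of the 3, which the rule for naming the largest rises required. Of all tested genes, 15.3% rose without overlap. Acpp, the prostatic acid phosphatase, had 54.0, 41.8 and 48.0 counts at 10 weeks and 123, 198 and 116 at 30 weeks, a log2 change of 1.55 ± 0.24 (adjusted p = 0.0343, limma), and was the 1 called gene of 17 tested in a list of genes of the androgen response. A list labelled other reproductive tract genes was drawn up after the values were seen, so its counts are a description. Of its 9 tested genes 6 rose, Adam7 among them, beside 0.449% of all genes. Without 5AF, or without 5AF and 15AF, 7 rose, and 1 to 7 rose when single libraries were left out. In WT 6 rose, beside 3.44% of all genes.

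Cldn10, Pdzk1, Aldh1a1 and Lgr5 rose as well, the last 3 of them picked after their values were seen. Cldn10, a claudin of tight junctions, had 124, 115 and 104 counts at 10 weeks and 301, 708 and 353 at 30 weeks (log2 change 1.88 ± 0.31, adjusted p = 0.0407, limma). Pdzk1, a scaffold for membrane transporters, went from 191, 263 and 151 to 565, 874 and 663 (1.81 ± 0.24, adjusted p = 0.0223, limma), and Aldh1a1, a retinaldehyde dehydrogenase, from 950, 941 and 876 to 1708, 2151 and 1773 (1.02 ± 0.12, adjusted p = 0.0128, limma). Lgr5, a receptor for R-spondins, went from 112, 94.1 and 99.4 to 218, 172 and 201 (0.94 ± 0.15, adjusted p = 0.0336, limma). In all 4 genes every 30-week library was above every 10-week library, as in 15.3% of all tested genes. The main secretory products themselves were not called in either direction, with 0 of 12 prostate secretory genes passing limma or edgeR, 5 at an unadjusted p under 0.05 and 3 by DESeq2. Sbp had a log2 change of 4.37 ± 2.37 (adjusted p = 0.328) and 9530053A07Rik of -4.76 ± 3.12 (adjusted p = 0.412, limma), with the 1 library nearly without the gene in each.

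In a list of 18 luminal and basal genes 0 rose and 2 fell, against 0.449% and 1.31% of all genes, both of them basal. Krt14, a keratin of basal cells, had 120, 106 and 131 counts at 10 weeks and 52.0, 33.7 and 55.5 at 30 weeks (log2 change -1.35 ± 0.23, adjusted p = 0.0442, limma). Col17a1, a hemidesmosome collagen that anchors basal cells, had 94.3, 136 and 136 and then 55.4, 34.4 and 48.0 (-1.40 ± 0.25, adjusted p = 0.0487, limma). The other 16 were not called, and the median of the list was 0.01. edgeR called 1 of the 18, and the falls became 3 without 5AF, 1 without 5AF and 15AF and 0 when any other single library was left out. Without 5AF 2 of the 18 also rose.

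Several immunoglobulin genes rose with age. Of 24 plasma and B cell genes, 12 were tested and 5 rose, against 0.449% of all genes. Of these 12, 5 passed the minimum count through the older libraries alone, with Igha and Ighg3 among the rises, and of the other 7 Ighm, Igkc and Jchain rose. Ighm, the constant region of the IgM heavy chain (chromosome 12, 113418558 to 113422730), had 134, 106 and 127 counts at 10 weeks and 546, 435 and 473 at 30 weeks, a log2 change of 1.98 ± 0.14 (SE, adjusted p = 0.00315, limma). Igkc, the kappa light chain constant region, had 44.6, 20.9 and 21.7 and then 279, 154 and 242 (2.95 ± 0.36, adjusted p = 0.0151, limma). Igha, the IgA heavy chain, had 6.00, 4.65 and 9.14 and then 49.7, 77.7 and 52.3 (3.02 ± 0.35, adjusted p = 0.0128, limma). In all 3 the lowest older library was above the highest younger one.

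Jchain, which joins polymeric IgA and IgM, went from 15.4, 20.9 and 17.1 to 61.0, 50.2 and 64.0 (1.66 ± 0.23, adjusted p = 0.0252, limma). Ighg3 went from 0, 2.32 and 2.28 to 31.6, 19.95 and 23.5 (3.53 ± 0.62, adjusted p = 0.0482, limma). Apart from Jchain, the tested members that are not immunoglobulin genes were not called. Xbp1, a transcription factor of secretory cells, had a log2 change of 0.18 ± 0.11 and Derl3, a factor of ER-associated degradation, of -0.58 ± 0.15 (adjusted p = 0.385 and 0.11, limma), and 3 of the 12 were negative. The 12 members not tested, Ms4a1 among them, were below the minimum count. The list held 5 rises without 5AF, 4 without 5AF and 15AF, and 1 to 5 when single libraries were left out. In WT 4 of 9 tested rose, against 3.44% of all genes, and Ighm went there from 136, 180 and 156 to 326, 653 and 561 counts. No immunoglobulin variable segment was called in either direction. Of 20 T or NK cell genes 1 was abundant enough to be tested and was not called (unadjusted p under 0.05 in 1, and 0 by edgeR and DESeq2).

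Genes of antigen presentation had smaller changes on the log2 scale. MHC class II genes present peptides to helper T cells, and 2 of 7 tested rose, against 0.449% of all genes, with all 7 positive. H2-Aa had 263, 206 and 262 counts at 10 weeks and 432, 436 and 447 at 30 weeks (log2 change 0.85 ± 0.13, adjusted p = 0.0288, limma), and H2-Eb1 had 178, 175 and 216 and then 324, 332 and 316 (0.77 ± 0.12, adjusted p = 0.0339, limma). The groups of 3 were tight and did not overlap, and 15.3% of all tested genes rose without overlap. The median was 0.58 in KO and 0.09 in WT, and the difference between them was not called for any of the 7 (1 at an unadjusted p under 0.05). In MHC class I, 1 of 16 tested genes rose, H2-K1, from 1551, 1589 and 1551 to 2597, 3006 and 2510 counts (0.79 ± 0.10, adjusted p = 0.0211, limma). Reads of H2 genes can be shared between paralogs, and no call of either class was left without library 13AF, 14AF, 15AF or 6AF. Among interferon response genes 0 of 35 were called by limma, edgeR or DESeq2, and 2 had an unadjusted p under 0.05. Of 17 macrophage and myeloid genes 0 were called by any of these tools, again with 2 at an unadjusted p under 0.05.

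The largest falls were in genes of autonomic neurons. The prostate is supplied by sympathetic noradrenergic and by cholinergic and nitrergic fibres whose cell bodies lie in pelvic ganglia at the gland. In a list of 44 neuronal genes drawn up after the values were seen, 38 were tested and 28 fell, beside 1.31% of all genes. Neuronal genes took 0.0739 to 0.0852% of reads in KO at 10 weeks and 0.0156 to 0.0423% at 30 weeks. Of the 38, 26 passed the minimum count through the 10-week libraries alone, and 25 of the 28 falls are among these, so the count is a description. Of the other 12, 3 fell, Kif5a among them.

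Genes of transmitters came first. Vip, the vasoactive intestinal peptide (ENSMUSG00000019772.5, chromosome 10, 5639218 to 5647617, plus strand), had 125, 196 and 95.9 counts at 10 weeks and 0 reads in all 3 libraries at 30 weeks, at least 48.2-fold lower (adjusted p = 0.0016, limma). Nos1, the neuronal nitric oxide synthase, had 176, 311 and 164 counts and then 0, 0 and 2.13, a ratio of 348 (95% counting interval 96.0 to 2882, adjusted p = 0.00318, limma). Th, which makes the precursor of noradrenaline, had 37.7, 51.1 and 49.1 counts and then 0 reads throughout, at least 15.9-fold lower (adjusted p = 0.00381, limma). Thus genes of the peptidergic, nitrergic and noradrenergic transmitters were near or at 0 in every older KO library. Dbh, which completes noradrenaline synthesis, had a ratio of 278 (49.4 to 11011), and such intervals cover counting error only. Slc18a3, the vesicular acetylcholine transporter, and Chrna3, the ganglionic nicotinic receptor subunit, had 0 reads at 30 weeks and were at least 7.86-fold and 27.9-fold lower.

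The structural genes of neurons went the same way. Prph, the filament protein peripherin of peripheral neurons, had 147, 160 and 132 counts at 10 weeks and 1.13, 1.38 and 2.13 at 30 weeks, a log2 change of -5.87 ± 0.29 (SE, adjusted p = 0.000991, limma). Tubb3, the neuronal β-tubulin, had 162, 164 and 156 and then 2.26, 2.75 and 1.07 (-5.78 ± 0.31, adjusted p = 0.0014, limma). Snap25, a fusion protein of synaptic vesicles, had 133, 141 and 139 and then 1.13, 0 and 0, a ratio of 449 (80.2 to 17787, adjusted p = 0.00164, limma). Within each age these values were close, and the ages were far apart. Nefl, Vat1l, Stmn2, Sv2c and Kif5a also fell, with log2 changes of -6.10, -4.44, -4.01, -3.72 and -3.68.

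In WT these genes varied between libraries of an age. Prph had 350, 30.5 and 36.9 counts in the WT libraries at 10 weeks and 2.99, 152 and 105 at 30 weeks, and Vip had 239, 11.6 and 24.6 and then 0.748, 81.7 and 56.2. The WT ages thus overlapped, with library 10AF high and 1AF low. In WT 1 of the 38 was called, which was higher at 30 weeks, beside 3.44% of all genes, and the median change was -0.82. The difference between KO and WT was not called for any of the 38 (smallest adjusted p = 0.243, limma). An unadjusted p under 0.05 was found for 18, against 12.8% of all genes. In KO the 28 falls became 30 without 5AF, 24 without 5AF and 15AF, and 7 to 30 when single libraries were left out, fewest without 15AF. Genes of a peripheral nerve list, described next, were also lower in KO at 30 weeks, and the part that the amount of nerve or ganglion in each gland had in the result was not tested.

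**Figure D3:**
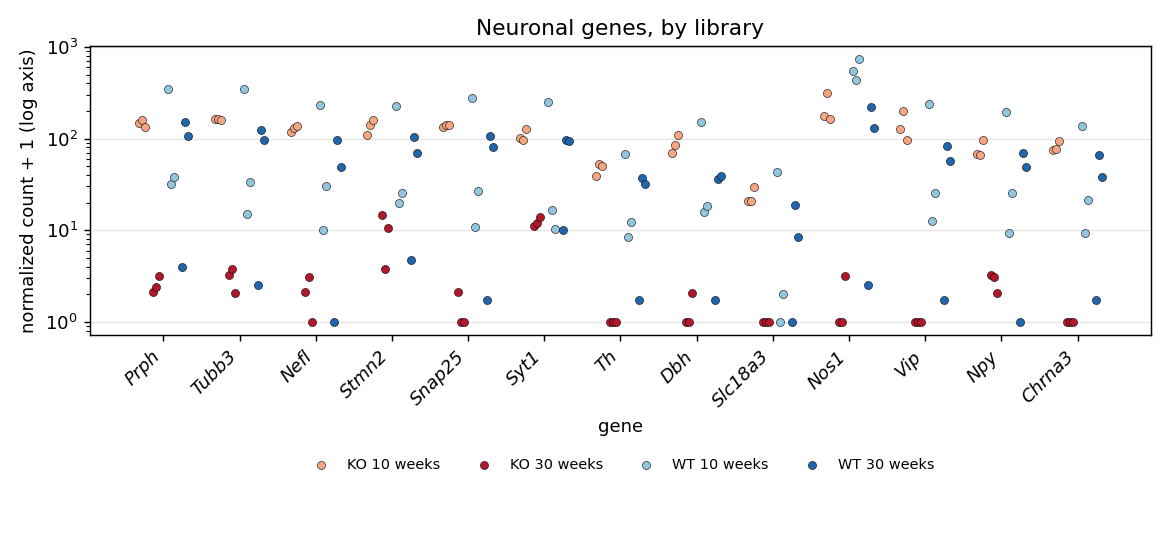
Normalized counts plus 1 (log axis) of 13 neuronal genes in each KO and WT library at 10 and 30 weeks, with 1 point per library and a count of 0 drawn at 1. The KO libraries of the ages are separate in every gene, while the WT libraries of the ages overlap, as for Prph at 30.5 to 350 and 2.99 to 152 counts.

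In a list of 12 genes of peripheral nerve, mostly of its sheath, all 12 were negative and 4 fell, against 1.31% of all genes, and the median was -1.55. Prx, a protein of myelinating Schwann cells, had 72.0, 82.5 and 68.5 counts at 10 weeks and 23.7, 22.0 and 22.4 at 30 weeks (log2 change -1.66 ± 0.19, adjusted p = 0.0122, limma). Sox10, the factor that defines Schwann cells, had 22.3, 25.6 and 17.1 and then 7.91, 10.3 and 11.7, and did not pass (adjusted p = 0.151, limma). The older libraries were lower in both of these. Uchl1, an enzyme of neurons and not of the sheath, and the sodium channel gene Scn7a also fell (log2 changes -2.38 and -1.14). The 4 falls became 8 without 5AF, 5 without 5AF and 15AF, and 0 to 8 when single libraries were left out, with 0 without 13AF, 15AF or 6AF.

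Among the largest falls outside neurons were Nlrp10 and Lct. Nlrp10, an NLR family gene of epithelia, had 792, 1069 and 1358 counts at 10 weeks and 72.3, 4.13 and 45.9 at 30 weeks (log2 change -5.33 ± 0.93, adjusted p = 0.0482, limma). Lct, the lactase gene, had 177, 258 and 336 and then 27.1, 4.82 and 20.3 (-4.04 ± 0.60, adjusted p = 0.0285, limma). Library 5AF, nearly without 9530053A07Rik, was the lowest in both. In WT, Nlrp10 had 788, 47.0 and 5.13 counts and then 3.74, 793 and 567, so that the ages overlapped, and its low libraries 12AF and 1AF were those with 49.2 and 53.1 counts of 9530053A07Rik.

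Many collagen genes fell. Fibrillar collagens are the main protein of the stroma around the ducts and are laid down while tissue grows. All 20 tested collagens were negative, 9 fell, against 1.31% of all genes, and the median log2 change was -0.86. Col1a1, the α1 chain of type I collagen (ENSMUSG00000001506.10, chromosome 11, 94936224 to 94953042, plus strand), had 1363, 1308 and 1271 counts at 10 weeks and 379, 374 and 401 at 30 weeks, a log2 change of -1.77 ± 0.09 (SE, adjusted p = 0.000991, limma). Col1a2 had 2567, 2526 and 2389 and then 1093, 1133 and 1056 (-1.19 ± 0.09, adjusted p = 0.00318, limma), and Col3a1 had 4221, 3703 and 4246 and then 1768, 1419 and 1791 (-1.29 ± 0.13, adjusted p = 0.00845, limma). These 3 genes varied little within each age, libraries 5AF and 15AF included, and the ages were well apart.

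The other falls were Col4a2 of basement membrane (-1.02), Col5a1 and Col5a2 (-1.30 and -1.06), Col6a1 and Col6a2 (-0.78 and -0.94) on the log2 scale, and Col28a1, a collagen of peripheral nerve, from 74.6, 47.7 and 41.1 to 9.04, 2.75 and 6.40 counts (-3.04 ± 0.46, adjusted p = 0.0306, limma), which passed the minimum count through the younger libraries alone. In WT 12 of the 20 fell, against 6.75% of all genes, with a median of -0.91, and Col1a1 went from 1391, 1016 and 657 to 345, 606 and 543 counts. The 9 falls in KO became 14 without 5AF, 12 without 5AF and 15AF, and 2 to 14 when single libraries were left out.

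Of 24 tested genes that fold, cross-link and organise collagen 8 fell, against 1.31% of all genes, and the median was -0.72. Serpinh1, the chaperone of procollagen, had 892, 858 and 885 counts at 10 weeks and 425, 473 and 479 at 30 weeks (log2 change -0.94 ± 0.09, adjusted p = 0.00833, limma). Sparc, a collagen-binding matrix protein, had 2511, 2320 and 2289 and then 1053, 1276 and 999 (-1.10 ± 0.12, adjusted p = 0.0106, limma). Fbn1, the microfibril protein fibrillin, had 1053, 926 and 923 and then 390, 592 and 431 (-1.06 ± 0.17, adjusted p = 0.0367, limma). The older libraries lay below all younger ones in 18 of the 24, these 3 included, against 15.4% of all tested genes. The cross-linking oxidases Loxl1 and Loxl2 fell (log2 changes -1.56 and -1.22), as did the procollagen protease Adamts2 (-1.61), Postn (-0.76) and Bgn (-0.58). In WT 8 of the 24 fell, against 6.75% of all genes. The 8 falls in KO became 11 without 5AF and 8 without 5AF and 15AF, and 0 were left without 13AF, 14AF or 15AF. Smooth muscle genes (median -0.70) and endothelial genes (-0.77) had 0 of 14 and 0 of 12 called by limma and edgeR, with 7 and 6 at an unadjusted p under 0.05 and 4 and 3 called by DESeq2.

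Lists of the cell cycle, growth factors, sterol synthesis and complement held 1 or 2 falls each. Mki67, the marker of cycling cells, had 424, 487 and 505 counts at 10 weeks and 216, 161 and 194 at 30 weeks (log2 change -1.31 ± 0.14, adjusted p = 0.0107, limma), and was the 1 of 34 cell cycle genes that fell, beside 1.31% of all genes, with 27 of the 34 negative. In WT 12 of these 34 fell, against 6.75% of all genes. Ccnd2, a D-type cyclin, had 601, 595 and 610 and then 349, 311 and 334 (-0.86 ± 0.09, adjusted p = 0.0102, limma). Of 14 genes of the insulin-like growth factor axis, Igf1 and Igfbp5 fell (log2 changes -0.84 and -1.13), Igfbp5 from 3364, 3933 and 3774 counts to 1620, 1817 and 1617. The groups did not overlap in any of these, as was so for 15.4% of all tested genes in this direction. Fgfr1, a fibroblast growth factor receptor, was the 1 of 22 Wnt, BMP and FGF genes that fell (log2 change -0.80), Hmgcs1 the 1 of 24 genes of sterol and fatty acid synthesis (-0.83), and C3 the 1 of 14 complement genes (-1.12). None of these 5 lists held a fall without 14AF, 15AF or 6AF.

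Imprinted genes, expressed from a single parental copy and known for high levels in growing tissue, held 3 falls of 20 tested, beside 1.31% of all genes. Their list was drawn up after the values were seen, so the count is a description. Meg3, a long noncoding RNA of the Dlk1 domain (chromosome 12, 109541001 to 109571726), had 571, 653 and 472 counts at 10 weeks and 108, 99.8 and 93.9 at 30 weeks (log2 change -2.47 ± 0.15, adjusted p = 0.0016, limma). Rian, from the same domain, had 245, 237 and 267 and then 62.1, 57.1 and 47.0 (-2.16 ± 0.15, adjusted p = 0.00312, limma), and Peg3, a zinc finger gene, had 197, 187 and 180 and then 41.8, 48.8 and 48.0 (-2.01 ± 0.14, adjusted p = 0.00312, limma). The list held 3 falls whichever single library was left out. In WT, Meg3 had 1014, 328 and 329 counts and then 91.2, 356 and 207, with overlapping ages and library 10AF high and 1AF low, the order seen in the neuronal genes.

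Haemoglobin genes mark the blood left in a tissue. In a list of red cell genes drawn up after the values were seen, 4 of 5 tested fell in KO and 4 in WT. The shares of all genes were 1.31% and 6.75%, and the counts of this list are a description. Hba-a1 had 252, 361 and 315 counts at 10 weeks and 106, 111 and 104 at 30 weeks (log2 change -1.51 ± 0.16, adjusted p = 0.0095, limma), and Hbb-bs had 446, 815 and 562 and then 212, 262 and 208 (-1.38 ± 0.23, adjusted p = 0.0407, limma). The younger libraries were higher in both. Hba-a2 and Hbb-bt fell too (log2 changes -1.40 and -1.64), and reads may be split between these near-identical pairs. No fall in this list was left without 14AF, 15AF or 6AF.

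Chaperones of the endoplasmic reticulum (ER) assist the folding of secreted proteins, and their genes share a response to unfolded protein. Of 26 tested in KO 2 fell, against 1.31% of all genes, the median was -0.24, and 17 were negative. In WT 8 rose, against 3.44% of all genes, with a median of 0.37. Creld2, a secreted ER stress protein (ENSMUSG00000023272.4, chromosome 15, 88819646 to 88826683, plus strand), had 1219, 1704 and 1811 counts in KO at 10 weeks and 623, 510 and 593 at 30 weeks, a log2 change of -1.44 ± 0.17 (SE, adjusted p = 0.0143, limma). In WT it had 782, 539 and 412 and then 565, 977 and 866. Syvn1, the ubiquitin ligase of ER-associated degradation, had 713, 908 and 831 and then 464, 411 and 475 in KO (-0.85 ± 0.12, adjusted p = 0.027, limma). The KO libraries at 10 weeks were the highest of the 4 groups for Creld2.

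The most abundant members did not pass in KO. Hspa5, the ER chaperone BiP, had 8787, 11038 and 11804 counts at 10 weeks and 6801, 7605 and 7202 at 30 weeks (log2 change -0.54 ± 0.15, adjusted p = 0.123, limma). Hsp90b1 had 8889, 10147 and 13209 and then 6896, 6792 and 6643 (-0.65 ± 0.17, adjusted p = 0.109, limma). Neither passed. Their ages did not overlap, as was so for 15.4% of all tested genes in this direction. The KO change minus the WT change had a median of -0.70 over the 26 genes, and 16 had an unadjusted p under 0.05, against 12.8% of all genes, but none passed after adjustment (smallest adjusted p = 0.221, limma). For Creld2 the difference was -1.93 (unadjusted p = 0.000254), for Hsp90b1 -1.39 (0.000391) and for Hyou1 -0.93 (0.000293). The WT libraries at 10 weeks, on which this difference also rests, held 4.12 to 13.2% of skeletal muscle reads, and the part of these in the difference was not tested. The 2 falls in KO became 3 without 5AF, stayed 2 without 5AF and 15AF, and 0 were left without 14AF, 15AF or 6AF.

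The element through which these genes answer unfolded protein is known, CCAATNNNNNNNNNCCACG, and it is shown in capitals for the genes that fell and for Hspa5, from 140 to 21 bases before the start in RefSeq, GRCm38.p6. In Creld2 it lies on the other strand, reading CGTGG to ATTGG.
Creld2 (chr15:88819506-88819625, plus): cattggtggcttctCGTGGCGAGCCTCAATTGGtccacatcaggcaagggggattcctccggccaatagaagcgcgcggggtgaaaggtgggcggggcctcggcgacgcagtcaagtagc
Syvn1 (chr19:6046436-6046555, plus): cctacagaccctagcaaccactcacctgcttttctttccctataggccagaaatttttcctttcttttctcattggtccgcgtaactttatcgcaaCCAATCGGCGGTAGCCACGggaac
Hspa5 (chr2:34771950-34772069, plus): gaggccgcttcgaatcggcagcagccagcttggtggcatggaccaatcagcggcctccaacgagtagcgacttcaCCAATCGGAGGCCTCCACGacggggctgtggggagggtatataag

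The element begins 126, 44 and 65 bases before the start in Creld2, Syvn1 and Hspa5. It lies in 39 of 32851 promoters on either strand (0.119%) and in 8 of the 23 genes of the list that have a promoter in the table, the others being Hsp90b1, Calr, Canx, Pdia6 and Dnajc3. Of these 8, Creld2 and Syvn1 were called in KO and Calr had a log2 change of -0.02 ± 0.13 (adjusted p = 0.947, limma).

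**Figure D4:**
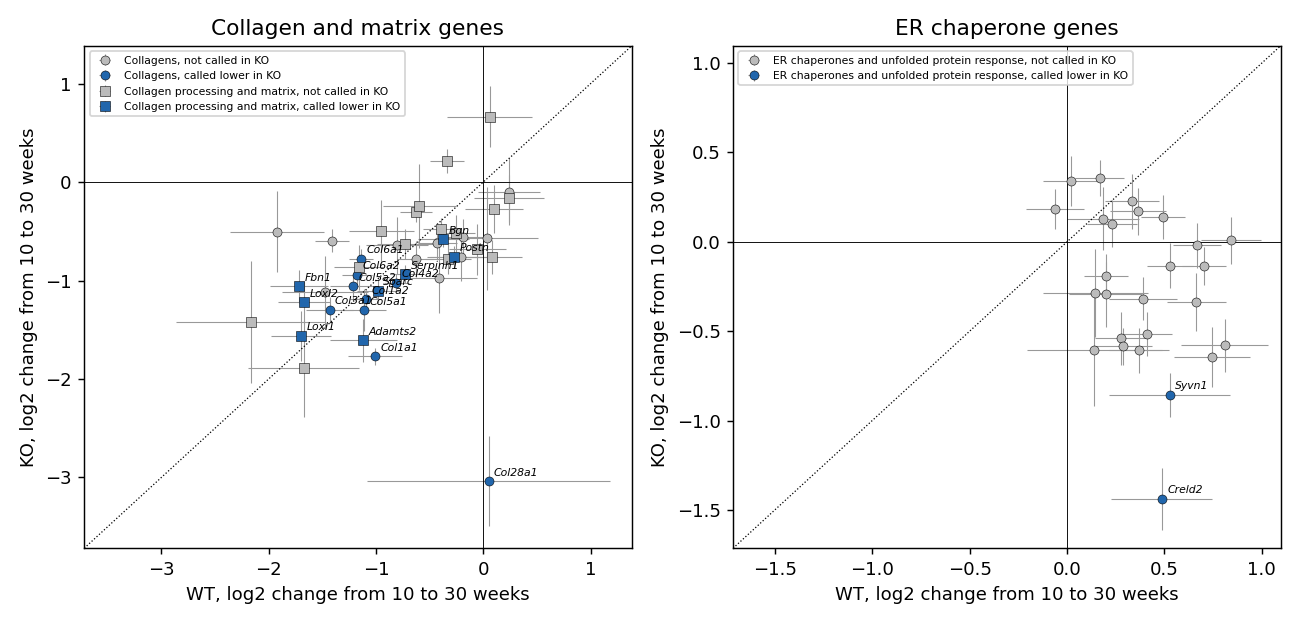
Log2 change from 10 to 30 weeks in KO (vertical) against WT (horizontal) for collagen and matrix genes (left) and ER chaperone genes (right), with bars of 1 SE and genes that fell in KO in blue and named. The dotted line marks equal change. Collagen and matrix genes lie mostly at the lower left, whereas Creld2 (-1.44 in KO) and Syvn1 (-0.85) lie in the lower right.

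Cytosolic chaperones held 2 falls of 20 tested, beside 1.31% of all genes, in a list drawn up after the values were seen, so the count is a description. Of these falls 0 were left without 14AF or 15AF and 1 without 6AF. Hsph1, a partner of Hsp70, had 626, 774 and 827 counts at 10 weeks and 249, 247 and 295 at 30 weeks (log2 change -1.49 ± 0.14, adjusted p = 0.00746, limma), and Dnaja4, an Hsp40 protein, had 364, 546 and 538 and then 139, 173 and 165 (-1.58 ± 0.19, adjusted p = 0.0143, limma). Hspa8, the constitutive Hsp70, had 5401, 7700 and 6509 and then 5340, 8167 and 5975, which did not pass (adjusted p = 0.969, limma). The older libraries were below all younger ones for the 2 that fell and overlapped for Hspa8. Npas2, a clock transcription factor, was the 1 gene called in both genotypes in opposite directions. It fell in KO from 85.8, 87.2 and 104 to 39.5, 44.7 and 44.8 counts (-1.08 ± 0.17, adjusted p = 0.0343, limma) and rose in WT from 36.2, 47.0 and 24.6 to 68.0, 58.4 and 63.5 (0.84, adjusted p = 0.0367, limma). The difference of -1.93 had an unadjusted p of 7.61e-05 and an adjusted p of 0.221. Npas2 was the 1 called gene of 17 in the circadian list, and its call in KO was lost without 5AF and 15AF and without any single library other than 5AF.

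The pathways closest to ELAC2 held few calls in KO, where 21.4% of all genes had an unadjusted p under 0.05. Of 19 tested tRNA end-processing genes 0 were called by limma, edgeR or DESeq2, 4 had an unadjusted p under 0.05, and the median was 0.20. Elac1, the short form of RNase Z, had 160, 146 and 166 counts at 10 weeks and 167, 161 and 149 at 30 weeks. Of 11 mitochondrial mRNAs 0 were called by limma or edgeR and 2 by DESeq2, 3 had an unadjusted p under 0.05, and the median was -0.13. mt-Co1, the catalytic subunit of complex IV, had 54425, 64044 and 43080 and then 58339, 62402 and 55579, with overlapping ages. mt-Nd1 of complex I had 10448, 12690 and 8921 and then 9538, 5887 and 7922 (log2 change -0.47 ± 0.22, adjusted p = 0.271, limma). The 2 mitochondrial rRNAs were not called by any of the 3 tools or at an unadjusted p under 0.05, and of 28 mitochondrial RNA and translation factors 0 were called by limma or edgeR and 1 by DESeq2, with 3 at an unadjusted p under 0.05. In WT 5 of the 11 mitochondrial mRNAs fell, against 6.75% of all genes. Skeletal muscle reads in WT were 4.12 to 13.2% at 10 weeks and 0.0340 to 0.0928% at 30 weeks, and their part was not tested.

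Nuclear genes of oxidative phosphorylation were slightly positive. In KO 1 of 72 rose, beside 0.449% of all genes, Ndufa1 of complex I, from 292, 274 and 298 counts at 10 weeks to 567, 515 and 534 at 30 weeks (log2 change 0.90 ± 0.10, adjusted p = 0.0102, limma), and 60 were positive with a median of 0.25 that ran from 0.06 to 0.36 over the scalings named above. In WT 15 fell, against 6.75% of all genes, with a median of -0.66. The difference had a median of 0.88, with 54 of 72 at an unadjusted p under 0.05, against 12.8% of all genes. None passed adjustment (smallest adjusted p = 0.235, limma). The WT libraries at 10 weeks carry the muscle reads given above. Of 46 cytosolic ribosomal protein genes 43 were positive, with a median of 0.32 (0.12 to 0.43 over these scalings), and 1 rose, Rps25, from 1420, 1359 and 1409 to 1888, 2191 and 2065 counts (0.55 ± 0.10, adjusted p = 0.0466, limma), beside 0.449% of all genes. edgeR called 0 of the 46, 20 had an unadjusted p under 0.05 and DESeq2 called 13, and 3 rose without 5AF and 0 without 5AF and 15AF or without any other single library. The cold-inducible RNA-binding protein genes Rbm3 and Cirbp also rose, by 0.68 ± 0.09 and 0.77 ± 0.13 on the log2 scale (adjusted p = 0.0243 and 0.0422, limma). Of 22 integrated stress response genes 0 were called by limma, edgeR or DESeq2, 6 had an unadjusted p under 0.05, and the median was -0.49.

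Over the 37 lists written with earlier results of these data known, 18 had at least 1 gene past the threshold and 19 had none. The 19 hold 294 tested genes, of which 61 had an unadjusted p under 0.05, near the 21.4% of all genes. Among these 294 edgeR called 0 and DESeq2 called 20. They include seminal vesicle, skeletal muscle, prostate secretory, adipocyte, macrophage, cell cycle inhibitor, metalloproteinase, glutathione and polyamine genes. Seminal vesicle genes had a median log2 change of -4.19, with 5AF nearly without them. Of these 11 genes 0 were called by limma, edgeR or DESeq2, and 0 had an unadjusted p under 0.05. Without 5AF the median was -1.10 and 5 of 11 were lower, against 2.68% of all genes. With 5AF and 15AF left out the median was -0.93 and 4 of 11 were lower, against 1.4% of all genes.

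**Figure D5:**
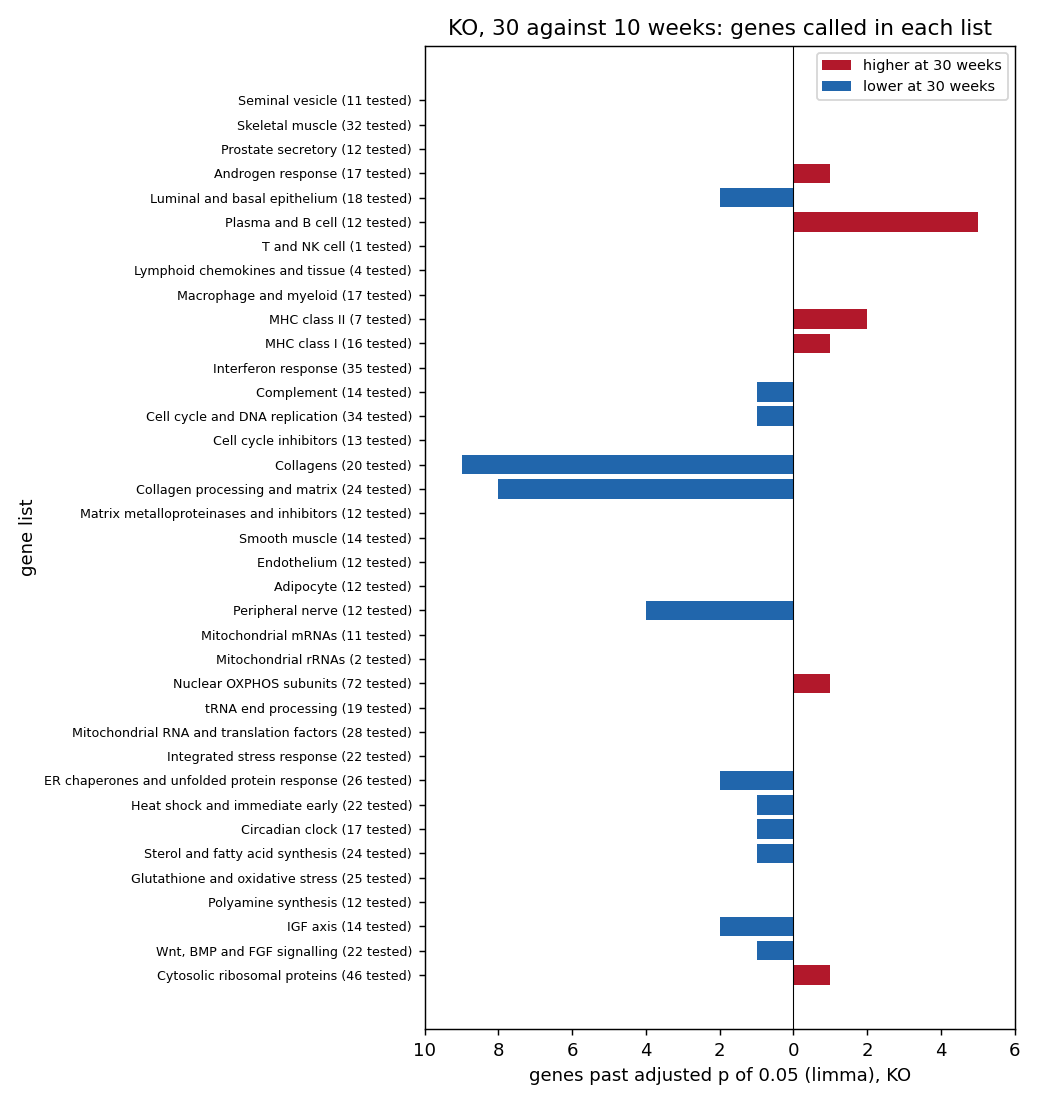
Number of genes past an adjusted p of 0.05 (limma) in each of the 37 lists, KO at 30 against 10 weeks, with rises to the right and falls to the left and the number tested in brackets. Collagens (9 falls) and matrix genes (8 falls) stand on the left, and plasma and B cell genes (5 rises) on the right.

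The genes with the strongest unadjusted differences between the KO and WT changes did not pass adjustment. Cobll1, an actin-binding protein gene, had 1063, 974 and 1047 counts in KO at 10 weeks and 820, 951 and 761 at 30 weeks, against 739, 879 and 698 and then 1487, 1371 and 1485 in WT, a difference of -1.20 (unadjusted p = 1.23e-05, adjusted p = 0.137, limma). S100a1, a calcium-binding protein of muscle, had 121, 150 and 109 and then 176, 175 and 173 in KO, against 191, 262 and 341 and then 120, 114 and 126 in WT, a difference of 1.57 (adjusted p = 0.221, limma). Separate ages in KO were a condition for naming these genes, which were ranked by their difference from WT. In WT the ages of both genes did not overlap either, and their order was opposite to that in KO. Kctd15, Zfp651, Nup35 and Amz2 had differences of 1.73, 1.25, 1.11 and 0.84 (adjusted p = 0.221 to 0.235, limma).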

How the data were processed

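Total RNA of mouse prostate (ventral and lateral lobes) was sequenced on the Illumina NovaSeq platform. Per the submitters' processing notes and the study's methods, reads were trimmed with Trim Galore 0.4.1 and cutadapt 1.18, aligned with STAR 2.7.3a to GRCm38, quantified with Salmon and imported as gene counts. The signal values that the authors deposited are these counts over the size factor that DESeq2 1.26 gave each library, in 1 table per mutant group with the 3 WT libraries of its age. WT columns are those shared by both tables of an age, and KO columns the others of the KO table. Further deposited tables hold the authors' mean counts, log2 fold changes with errors and s-values, which were not used, nor were 6 per-sample columns of the point mutant. Column names carry no replicate number.

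Whole reads were recovered from each column (at least 99.99% of values whole within 0.1 read), and the KO libraries of both ages were scaled together by median of ratios. The imported counts were length-scaled within a table, so that recovered reads of a WT library lay within 0.1 log2 between its tables for 86.2% of genes at 10 weeks and 90.0% at 30 weeks, and within 0.25 for 98.0% and 98.5%. Such a factor can enter the comparison of ages and drops out of the difference between genotypes.

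Tests used limma 3.58.1 (eBayes with trend) in R 4.3.3 on log2 of the scaled reads plus 1, for genes that averaged 10 or more, and p was adjusted over all tested genes by Benjamini-Hochberg with a threshold of 0.05. Fold changes on this scale understate those of low genes. The WT change, and the KO change minus the WT change, were contrasts over 12 libraries. An exact permutation of 3 against 3 cannot go below p = 0.1 and was not used. Alternatives were edgeR 4.0.16 and DESeq2 1.42.0 on recovered reads, other scalings, pseudocount 8, minimum means of 1 and 100, no trend, library weights, a 12-library fit and each library left out. Leaving out 5AF and 15AF together was added after the data were seen. The scripts were tested on simulated data. The labels number separate samples from 3 mice per group, so p measures the spread between these. Intervals are 95% counting intervals, and 0 reads were taken to allow 3.

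The comparison, the 37 gene lists and the rule for naming genes were chosen with earlier results of these data known. Named were Elac2, and the 3 most abundant tested members and up to 5 called members of each list. So were the 12 largest rises and falls among called genes with a mean of at least 50, separate ages and an approved symbol. The 5 strongest differences from WT in each direction were named under the same mean, symbol and separate ages in KO. Where fewer passed, places were filled by smallest unadjusted p (limma). Some genes that this rule names are not reported here. The 6 added lists (secretoglobins, autonomic neurons, imprinted genes, red cells, other reproductive tract genes, cytosolic chaperones) and Aldh1a1, Bgn, Calr, Canx, Ccnd2, Cirbp, Col4a2, Col5a2, Col6a1, Col6a2, Dnajc3, Krt8, Lgr5, Pdia6, Pdzk1, Postn, Rbm3, Serpinh1, Sox10 and mt-Nd1 were chosen after values were seen. Of 55469 gene IDs, 55107 matched the GENCODE annotation without version. Other steps ran in Python 3.11.15 (matplotlib 3.10.9, scipy 1.17.1, pandas 2.3.3, numpy 2.4.6).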

Additional observations from a re-analysis of the deposited data

Results flagged for a closer look

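Some genes and lists had log2 differences between 30 and 10 weeks of opposite sign in KO and WT, with every KO library at 30 weeks on one side of those at 10 weeks and every WT library on the other. For ER chaperone genes the mean log2 change of the list was -0.25 in KO and 0.39 in WT, and for glutathione and oxidative stress genes it was 0.17 and -0.19. The difference was not tested for a list.

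Among ER genes, the log2 difference of Hspa5 was -0.54 in KO and 0.28 in WT, that of Hsp90b1 -0.65 and 0.74, that of Hyou1 -0.51 and 0.41, and that of Derl3 -0.58 and 0.61. For Npas2 the values were -1.08 and 0.84, for Cobll1 -0.29 and 0.91, and for Azin1, the antizyme inhibitor of polyamine synthesis, -0.38 and 0.33. In the other direction they were 0.48 and -1.10 for S100a1, 0.58 and -0.53 for Nup35, and 0.27 and -0.57 for Amz2. In KO, Npas2 passed an adjusted p of 0.05 and the others did not, and in WT Hsp90b1, Npas2, Cobll1, S100a1 and Amz2 passed (limma). For each of these genes the contrast of the 2 differences missed an adjusted p of 0.05 in limma, and the skeletal muscle reads of the WT libraries at 10 weeks stand beside them with an untested part.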

How the results depend on the processing

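No paired analysis was possible because the columns of the tables carry no replicate number. The 263 calls in KO (67 higher, 196 lower) became 1103 (487, 616) with DESeq2, 64 (33, 31) in a fit of 12 libraries, 2798 (1319, 1479) with library weights, and 111 (42, 69) with a minimum mean of 100, where fewer genes are tested. Scaling to the same total gave 443 calls with 398 lower, and 600 with 545 lower when seminal vesicle and skeletal muscle genes were left out of the total. No mean trend gave 39 higher, the deposited size factors 154 higher, and leaving out 5AF and 15AF 108 higher. Leaving out 1 library gave 23 to 551 calls, 6 to 154 higher and 15 to 397 lower, with 33 without 13AF, 31 without 14AF, 23 without 15AF, 56 without 6AF and 551 without 5AF. The cause was not tested. The difference between genotypes had 0 calls, 220 (144, 76) with DESeq2 and 3642 (1959, 1683) with library weights. Leaving out 1 library gave 0 to 156 calls, 0 to 151 higher and 0 to 5 lower, with 156 without 14AF and 7 without 5AF. Of all counts computed under these settings, 52 moved by over 1.5 times and 68 did not. Of the 87 named genes past the threshold, none changed sign under any setting, although calls were lost as given above. With 3 libraries a group and 2 that stand apart, single-gene calls of small size depend on each library.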
